A study of Mus musculus with 55 samples.

Results

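Prom1, Spp1, Tspan8, Ly6d and Sprr1a are genes of progenitor, bile duct or surface epithelial cells whose RNA was far higher in livers of TCPOBOP-treated Setd8-LKO mice than in untreated wild type livers. These 5 genes were picked by name, because of their values in that comparison, out of 3900 genes listed for it. In the table that sets TCPOBOP-treated against untreated wild type livers, only Prom1 is listed, among 719 genes. The differences between Setd8-LKO + TCPOBOP and WT given below are therefore a description with no test.

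RNA-seq was performed on total liver RNA of C57Bl6 males aged 45 to 50 days in 3 groups: untreated wild type (WT, n = 5), wild type 24 h after intraperitoneal 3 mg/kg TCPOBOP (WT + TCPOBOP, n = 5) and Setd8 lox/lox AlbCre mice given the same dose for the same time (Setd8-LKO + TCPOBOP, n = 4). TCPOBOP is an agonist of the nuclear receptor CAR that drives hepatocytes into the cell cycle. In Setd8-LKO mice, Cre under the albumin promoter deletes exon 7 of Setd8, the H4K20 monomethylase gene, in hepatocytes. H3K27ac, CTCF and Smc3 binding, accessible chromatin (ATAC-seq), Lamin A/C and H4K20me3 were mapped in WT and Setd8-LKO + TCPOBOP, and 1 list of peaks or islands per condition was used. Genotype and treatment change together between these groups, and their parts cannot be told apart. The labels call the controls untreated, but corn oil is the vehicle in the methods and DMSO the mock treatment in the Reporting Summary.

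The listed genes of the Setd8-LKO table sum to between 5734065 and 12780869 raw counts per library, and the full depth is not given in these tables. Kmt5a, the gene of Setd8, had 563 to 761 normalized counts in WT and 1313 to 1465 in the libraries labelled Setd8-LKO. Reads of the floxed exon 7 are not counted on their own, so these values do not check the labels, and groups are named by their labels. The defining hepatocyte marker Alb was present in every library, and of the 9 hepatocyte markers tested 6 were lower and 2 were higher in Setd8-LKO + TCPOBOP, against 0 and 1 with the replicate number as a block. Libraries of the same number share only that number across groups, so this block, here and below, is not a pairing in the design. Of the 3807 genes tested with edgeR, 1932 (50.7%) were called higher and 1289 (33.9%) lower, at an adjusted p under 0.05 and a log2 fold change of at least 1 in size. Higher genes made up 60% of these calls, and 35.9% with DESeq2 size factors, where the median log2 fold change of all genes moved by -0.824 and left 816 genes called higher. These size factors were estimated over the listed genes alone, which the authors selected. A selected table cannot show which scaling holds.

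The liver holds few cells that make these RNAs in quantity. Bile duct cells, which line the ducts that carry bile, and the progenitor-like cells of the ductular reaction to injury are known for Prom1, Spp1 and Tspan8. Prom1 encodes prominin-1 (CD133), a pentaspan glycoprotein of membrane protrusions used as a stem and progenitor cell marker. Spp1 encodes osteopontin, a secreted phosphoprotein that binds integrins and CD44 and is also made by activated macrophages. Tspan8 encodes a tetraspanin, a membrane protein that organises integrins and other surface proteins. Ly6d encodes a small GPI-anchored protein of the Ly6 family found on keratinocytes and early lymphoid cells. Sprr1a encodes a small proline-rich protein that is cross-linked into the cornified envelope of squamous epithelia and is induced by injury in other tissues.

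The DNA of 3 places shows what the chromatin data and the promoter sequences hold at these genes (all GRCm38, the build of the files). The first pair is from Prom1, where the WT list had a Smc3 peak beyond the 3' end of the gene and the Setd8-LKO list had CTCF and Smc3 peaks at its start. Each run is the 201 bases around the peak summit on the plus strand, and capitals mark a match to a core of the CTCF motif, which reads CC, 3 bases of any kind, AG, 2 of any kind and GGC, and was searched on both strands.
Prom1 Smc3 summit of WT, chr5:43990425-43990625: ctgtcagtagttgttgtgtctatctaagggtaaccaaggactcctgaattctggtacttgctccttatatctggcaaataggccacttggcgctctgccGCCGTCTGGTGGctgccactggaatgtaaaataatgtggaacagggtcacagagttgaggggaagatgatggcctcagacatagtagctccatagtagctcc
Prom1 CTCF summit of Setd8-LKO + TCPOBOP, chr5:44100946-44101146: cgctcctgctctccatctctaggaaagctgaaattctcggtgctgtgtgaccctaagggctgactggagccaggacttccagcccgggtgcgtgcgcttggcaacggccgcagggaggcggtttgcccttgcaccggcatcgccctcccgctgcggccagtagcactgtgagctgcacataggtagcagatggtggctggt
The WT window lies downstream of the gene and is 49.3% G + C, and it holds 1 core. The Setd8-LKO window lies in an intron and is 63.2% G + C, and these letters are not in it.

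The second set is from the promoters, read from RefSeq (GRCm38.p6, 250 bases before to 50 after a start). Entries matched Prom1 and Spp1 with 2 starts each and Tspan8 and Sprr1a with 1 each, and Ly6d was not matched. The part upstream of the start of Sprr1a and of Spp1 is shown in the direction of the gene, with capitals for matches to the AP-1 site (TGANTCA), the TATA box (TATAAA) and the CCAAT box (CCAAT) on either strand. From Prom1, 27 bases around an AP-1 match are shown.
Sprr1a upstream, chr3:92485896-92486131, minus strand: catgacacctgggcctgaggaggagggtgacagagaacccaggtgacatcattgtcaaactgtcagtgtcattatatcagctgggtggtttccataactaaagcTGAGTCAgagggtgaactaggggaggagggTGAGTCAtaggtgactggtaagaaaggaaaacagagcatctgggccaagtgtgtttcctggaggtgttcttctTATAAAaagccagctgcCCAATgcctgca
Spp1 upstream, chr5:104434861-104435110, plus strand: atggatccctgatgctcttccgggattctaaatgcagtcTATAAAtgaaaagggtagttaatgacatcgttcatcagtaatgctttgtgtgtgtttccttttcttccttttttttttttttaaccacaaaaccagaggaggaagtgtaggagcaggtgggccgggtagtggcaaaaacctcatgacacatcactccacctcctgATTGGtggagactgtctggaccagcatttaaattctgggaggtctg
Prom1 AP-1 match, chr5:44101808-44101834, minus strand: cccgtggtccTGACTCAggcaccctta
The Sprr1a promoter holds 2 AP-1 matches, at -146 and -116 from its start, besides a TATA box at -43 and a CCAAT box at -26. Both Prom1 promoters hold 1 AP-1 match, at -88 from the upstream start, where another annotated transcript has its 5' UTR, and at -189 from the downstream one. Of all 32841 promoter windows, 7.81% hold an AP-1 match, 13.6% a TATA box and 37.4% a CCAAT box.

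The Spp1 promoter holds a TATA box at -211 and a CCAAT box on the other strand at -46. The Tspan8 window holds none of these motifs. No window of the 4 matched genes holds a TEAD site (GGAATG, 14.7% of all windows), a SOX site (AACAAT, 10.7%), an E2F site (TTTNNCGC, 5.17%), an NF-kB site (GGGA, any base, TTTCC, 0.411%), the CTCF core (8.61%) or the DR4 element bound by CAR (AGGTCA repeated after 4 bases of any kind, 0.0152%). None of the matches in the printed stretches overlaps another. A match is a string of letters and not a measured site.

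Ly6d had the highest level per kb of exon in each Setd8-LKO liver. Its normalized counts were 8, 10, 30, 13 and 11 in the 5 WT livers and 5445, 4558, 2645 and 4654 in the 4 Setd8-LKO livers. The groups were far apart, and the lowest Setd8-LKO liver stood 88.2 times above the highest WT liver. The fitted log2 fold change was 8.19 (SE 0.42), the place 13 among the 3807 genes tested.

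Sprr1a was nearly absent from untreated livers. Its normalized counts were 0, 0, 2, 5 and 0 in WT, from 7 raw reads in all, and 1718, 1381, 208 and 776 in Setd8-LKO + TCPOBOP. All 4 Setd8-LKO livers were above all 5 WT livers, although the lowest was 8.26 times below the highest. The ratio of the group means was 729, with a 95% Poisson interval from the 7 reads of 354 to 1813 that covers counting error only. The fitted log2 fold change was 9.29 (SE 0.86), place 5.

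Prom1 was low in untreated livers. Its normalized counts were 31, 9, 35, 29 and 57 in WT and 1149, 1565, 387 and 1141 in Setd8-LKO + TCPOBOP. The means were 32.2 ± 17.1 (SD, n = 5) and 1060 ± 491 (SD, n = 4), and the groups did not overlap. The fitted log2 fold change was 5.04 (SE 0.50), place 91.

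Spp1 was the only one of the 5 with more than 57 counts in any untreated liver. Its normalized counts were 514, 427, 261, 471 and 318 in WT and 6634, 5109, 1259 and 3329 in Setd8-LKO + TCPOBOP. The groups did not overlap, and the lowest Setd8-LKO liver stood 2.45 times above the highest WT liver. The fitted log2 fold change was 3.36 (SE 0.42), place 337.

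Tspan8 was low throughout. Its normalized counts were 18, 6, 15, 20 and 16 in WT and 242, 214, 50 and 143 in Setd8-LKO + TCPOBOP. The groups did not overlap, and the lowest Setd8-LKO liver stood 2.5 times above the highest WT liver. The fitted log2 fold change was 3.42 (SE 0.46), place 317. Every Setd8-LKO library above every WT library was the case for 51.6% of all genes tested, so for a gene chosen from this table it is a common pattern. In bulk RNA, more cells of a type and more RNA per cell cannot be told apart.

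**Figure D1:**
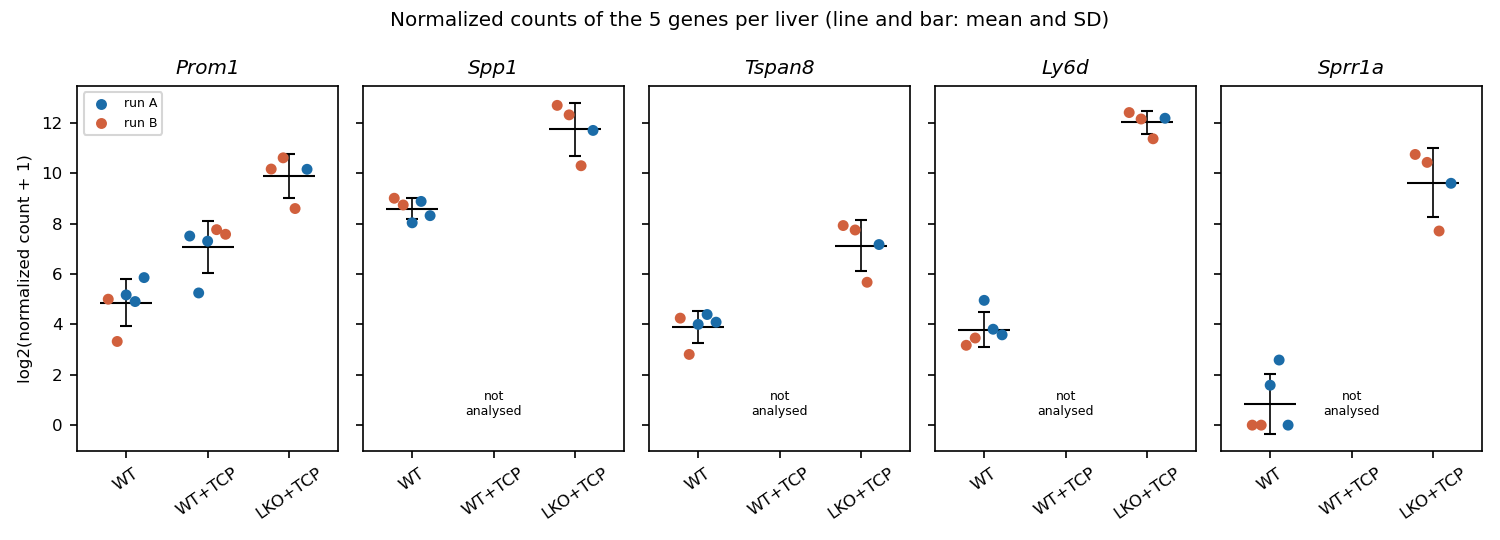
Normalized counts of the 5 genes on a log2(count + 1) axis, 1 point per liver coloured by sequencing run, with the mean and SD of each group. The 4 Setd8-LKO + TCPOBOP livers lie above the 5 WT livers for each gene, and WT + TCPOBOP, analysed for Prom1 only, lies between the other groups except for 1 liver inside the WT range.

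Levels between genes were compared per kb of exon. In WT, Spp1 came first with 158 to 312 normalized counts per kb, then Ly6d with 10.8 to 40.3 and Tspan8 with 3.52 to 11.8. Prom1 had 1.25 to 7.94 and Sprr1a at most 6.20 per kb. Only Spp1 was set apart from the next gene in WT, since the ranges of the other neighbours overlapped. In Setd8-LKO + TCPOBOP, Ly6d came first with 3555 to 7319 per kb, followed by Spp1 with 764 to 4025 and Sprr1a with 258 to 2132. Prom1 had 53.9 to 218 and Tspan8 29.4 to 142 per kb. The ranges of Ly6d and Spp1, of Spp1 and Sprr1a, and of Prom1 and Tspan8 overlapped, and those of Sprr1a and Prom1 did not. Within each of the 4 livers the order was the same: Ly6d, Spp1, Sprr1a, Prom1, Tspan8.

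Prom1 is the 1 gene of the 5 that could be compared between WT + TCPOBOP and WT, a comparison that reuses the untreated livers that chose the gene and holds selected genes only. Its normalized counts in the 5 WT + TCPOBOP livers were 181, 37, 157, 216 and 190, against 9 to 57 in the same untreated livers. The mean was 156 ± 69.9 (SD, n = 5), 4.85 times that of WT, and 4 of 5 treated livers were above all untreated ones. For 60.5% of the genes tested in this comparison, every treated liver was above every untreated one. The second liver, with 37 for Prom1, lay inside the WT range. The log2 fold change was 2.28 (SE 0.51), which did not pass in edgeR (adjusted p = 0.0914 over all annotated genes). With TMM scaling over the listed genes it was 1.29, and with DESeq2 size factors over the same genes 1.1. In this comparison 348 of 679 genes tested (51.3%) were called higher and 110 (16.2%) lower. Higher genes made up 76% of these calls, 27.7% with TMM and 25.8% with DESeq2 size factors.

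Without the second treated liver, the log2 fold change was 2.53 and passed (edgeR adjusted p = 0.0151). That liver was the low one, and with any other library left out the log2 fold change did not pass. Within sequencing run A it was 1.63 and within run B 3.32, and neither passed in edgeR (adjusted p = 1 and 0.0616). The 2 tables share their untreated libraries, with the same counts and scaling, so the values can stand side by side. The mean of Setd8-LKO + TCPOBOP was 6.79 times that of WT + TCPOBOP, and the lowest Setd8-LKO liver, with 387, stood 1.79 times above the highest WT + TCPOBOP liver, with 216. Since the Setd8-LKO values chose the gene, this last difference has no test. Spp1, Tspan8, Ly6d and Sprr1a were not analysed here in WT + TCPOBOP.

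The 5 genes varied together among the Setd8-LKO livers in one respect: replicate 3 had the lowest count of each. The mean of the other 3 livers was 1.85 times replicate 3 for Ly6d, 3.32 times for Prom1, 3.99 times for both Spp1 and Tspan8, and 6.21 times for Sprr1a. Replicate 3 was also the lowest of the 4 for 1024 of the 1932 genes called higher (53.0%). The order of the other livers was 1, 2, 4 for Spp1, Tspan8 and Sprr1a, 1, 4, 2 for Ly6d and 2, 1, 4 for Prom1. Spp1 and Tspan8 kept the closest ratio, with an SD of their log2 ratio over the 4 livers of 0.10, against 0.32 to 0.94 in the other pairs.

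**Figure D2:**
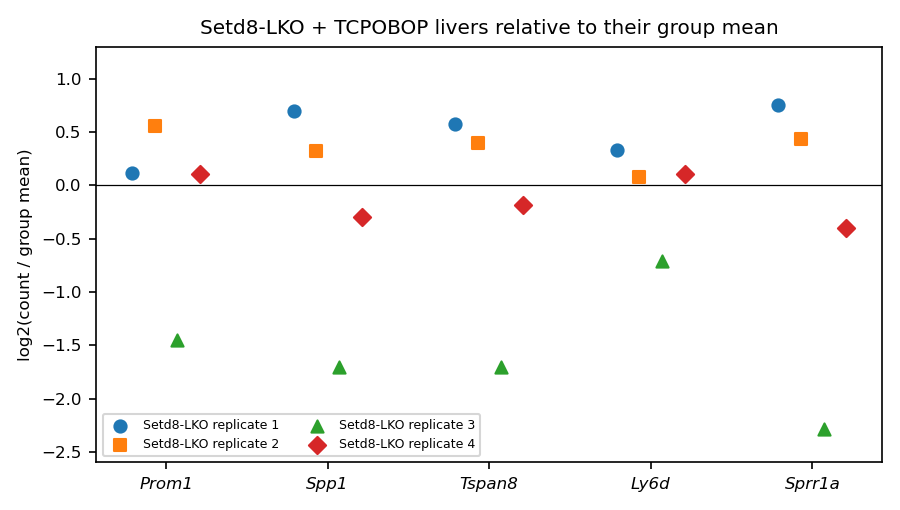
Count of each gene in each of the 4 Setd8-LKO + TCPOBOP livers relative to the group mean, as a log2 ratio, with 1 symbol per liver. Replicate 3 lies lowest for all 5 genes, from -0.71 for Ly6d to -2.29 for Sprr1a.

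With replicate 3 left out, the fitted log2 fold changes were 5.32 for Prom1, 3.66 for Spp1, 3.71 for Tspan8, 8.37 for Ly6d and 9.63 for Sprr1a. Sums of cell type markers moved with the same liver. The 9 listed cholangiocyte markers summed to 245 to 333 normalized counts in WT and to 2157, 2019, 788 and 1249 in Setd8-LKO replicates 1 to 4. The 6 listed stellate cell and fibroblast markers summed to 2276 to 3474 in WT and to 13766, 12625, 5897 and 7840. The 4 listed macrophage markers summed to 99 to 320 in WT and to 947, 675, 588 and 611. Replicate 3 was lowest in each of these sets. It was also lowest for the listed neutrophil, B cell and endothelial markers, with 71, 25 and 196. For the 9 hepatocyte markers it was not, with 1224363 against 934869 in replicate 2. The part of these cell types in the counts of the 5 genes was not tested.

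Counts of called markers stand beside the shares over all genes tested, 50.7% called higher and 33.9% lower. Of 12 cholangiocyte markers 9 are listed, and 8 of these rose and none fell, with 5 called with DESeq2 size factors or the replicate block. Of 9 stellate cell and fibroblast markers 6 are listed, all of which rose, 3 with the replicate block. Of 13 macrophage and Kupffer cell markers 4 are listed and rose, but 2 were called with DESeq2 size factors, with the replicate block, or without WT replicate 5 or Setd8-LKO replicate 1 or 2. Ccr2 and Trem2 are among these 4, while Adgre1, Cd68 and Clec4f are not listed. Of 3 B cell markers tested Cd79b and Cd22 fell. None was called with a run term, with the replicate block, or without Setd8-LKO replicate 1, 2 or 4, and 1 was without WT replicate 3 or 5 or Setd8-LKO replicate 3. Neither of the 2 neutrophil markers tested was called by edgeR or DESeq2, and 1 had an unadjusted p under 0.05. Vwf, the 1 endothelial marker listed, rose with a log2 fold change of 1.03 (SE 0.25, edgeR adjusted p = 0.0331). This call was lost with DESeq2 size factors, a run term or the replicate block, and without any 1 of WT replicates 2 to 5 or Setd8-LKO replicates 1, 2 and 4. No T or NK cell marker is listed.

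Of 30 biliary and progenitor genes 20 were tested, and 15 rose, 1 fell and 4 were not called, with a median log2 fold change of 2.24 against 1.19 over all genes tested. With DESeq2 size factors 8 were called higher. In the main fit 50.7% of all genes tested were called higher and 33.9% lower. Sox4, a transcription factor of progenitor cells, had 46 ± 6.04 normalized counts in WT (SD, n = 5) and 1033 ± 325 in Setd8-LKO (SD, n = 4). Its log2 fold change was 4.49 (SE 0.25, edgeR adjusted p = 3.76e-06). Cldn4 and Cldn7, tight junction claudins, rose by 4.38 and 3.21 on the log2 scale, and Epcam, the epithelial adhesion molecule, by 3.21. Sox9, which marks bile duct cells, rose least with 1.32 (SE 0.26, edgeR adjusted p = 0.00850).

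Onecut1, a hepatocyte and biliary transcription factor, was the gene that fell, with a log2 fold change of -2.61 (SE 0.37, edgeR adjusted p = 0.000939). Krt19, Krt23, Dmbt1 and Cd44 were not called. Cd44, an osteopontin receptor, ranged from 264 to 9430 normalized counts within WT. Of 14 osteopontin relatives and receptors only Cd44 and Itga8 are listed, and neither was called by edgeR. Of these 2, 1 had an unadjusted p under 0.05 and 1 was called by DESeq2.

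Sprr1a belongs to a squamous programme. The share of all protein-coding genes that are listed was not counted. The number of squamous genes listed is therefore a description and not a result about the programme. Of 35 squamous and cornified envelope genes 5 are listed, and all 5 rose, as did 50.7% of all genes tested. With DESeq2 size factors 2 were called, with the replicate block 3 and without Setd8-LKO replicate 1 also 3. Pkp1, a desmosome plakophilin of stratified epithelia, went from at most 1 normalized count in WT to 89 to 222 in Setd8-LKO, a log2 fold change of 8.18 (SE 0.55, edgeR adjusted p = 9.17e-06). Evpl and Ppl, which encode the envelope scaffolds envoplakin and periplakin, rose by 2.29 and 1.83 on the log2 scale, and Pkp3 and Cstb by 1.40 and 1.06. The other Sprr genes of the list, loricrin, involucrin, filaggrin and the squamous keratins are not listed. Of all 66 genes annotated within 500 kb of Sprr1a, 45 of them protein-coding, none is listed besides Sprr1a.

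Ly6d stands among relatives that moved less. Of 26 Ly6 family genes 7 were tested, of which 5 rose, 3 with DESeq2 size factors, and 1 fell. Over all genes tested, 50.7% were called higher and 33.9% lower. Ly6m rose by 2.92 on the log2 scale, Plaur, the urokinase receptor, by 2.51, Lynx1 by 2.49 and Ly6c2 by 1.61. Ly6e, the most abundant, went from 3217 ± 868 (SD, n = 5) to 7952 ± 857 normalized counts (SD, n = 4). Cd59b, a complement inhibitor, fell, with -1.16 (SE 0.18, edgeR adjusted p = 0.00136). Within 500 kb of Ly6d, 9 of 41 genes are listed, of which 7 rose, Ly6g2 fell and Ly6c1 was not called. Lynx1, Ly6m, Ly6e and Ly6c2 are among those that rose and are also in the family count. Lynx1 lies at 9.01 kb. The antisense gene Gm17189, at 20.4 kb, rose with a log2 fold change of 5.74 (SE 0.72, edgeR adjusted p = 0.000391).

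Of 30 tetraspanins besides Tspan8, 6 were tested, and 4 rose, 2 with DESeq2 size factors, and 1 fell. The shares over all genes tested were 50.7% higher and 33.9% lower. Cd63, a tetraspanin of late endosomes and exosomes, rose by 3.42 on the log2 scale (SE 0.26, edgeR adjusted p = 1.89e-05), from 62.2 ± 10.4 (SD, n = 5) to 664 ± 233 normalized counts (SD, n = 4). Cd9 rose by 2.05 on the log2 scale, Tspan13 by 1.91 and Tspan3 by 1.47, and Tspan33 fell by 2.35 on the log2 scale. Of 7 apical membrane genes Vil1 (villin) and Ezr (ezrin) are listed, and they rose by 2.48 and 1.39 on the log2 scale. Only 1 was called with DESeq2 size factors, with the replicate block, or without Setd8-LKO replicate 1 or 2.

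Of 18 YAP/TEAD targets 9 were tested, and 7 rose, 1 fell and Ccn2 was not called. Among all genes tested 50.7% rose and 33.9% fell. With DESeq2 size factors 3 were called higher, and 4 with the replicate block. Ankrd1 rose by 4.75 on the log2 scale, Nt5e by 3.25, Tgfb2 by 2.83 and Myof by 1.75, and Wwc1 fell by 1.19 on the log2 scale. Of 10 AP-1 genes 5 were tested and 4 rose. Atf3 rose by 3.97 on the log2 scale, Jun by 2.77, Fosl2 by 2.27 and Jund by 1.04, and Fos was not called. Fosl2 and Jun were also called higher in WT + TCPOBOP against WT, with log2 fold changes of 3.20 (SE 0.21, edgeR adjusted p = 1.93e-05) and 1.34 (SE 0.23, edgeR adjusted p = 0.0151). In that comparison 51.3% of the 679 genes tested were called higher. TMM and DESeq2 size factors moved its median log2 fold change by -0.991 and -1.173, shifts close to the size of the Jun change. For Atf3, Jun, Fosl2 and Jund, replicate 3 was the highest Setd8-LKO liver, in contrast to the 5 genes, with 604, 1844, 914 and 3822 normalized counts. For Fos it was the lowest, with 41.

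**Figure D3:**
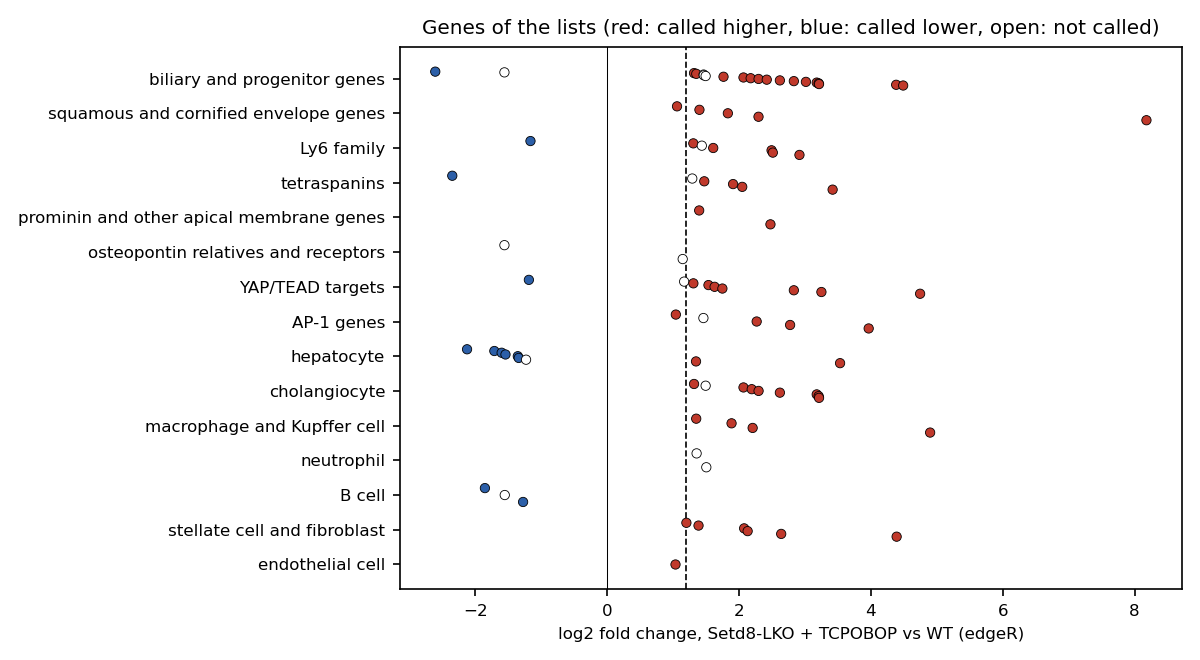
Fitted log2 fold change of each tested gene of the lists and marker sets in Setd8-LKO + TCPOBOP against WT, with red, blue and open points for genes called higher, called lower and not called. The dashed line is the median of all 3807 genes tested, 1.19, and in most sets most genes lie to the right of it. Those of the hepatocyte, B cell, osteopontin and endothelial sets lie mostly to the left.

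The genes whose pattern over the 9 libraries was most like each of the 5 were found by the root mean square difference of log2(normalized count + 1) after each gene's mean was subtracted, over 3214 genes. This uses the same libraries that chose the members and is a description. For Prom1 they were Spink1 (0.40), Ifnlr1 (0.47) and Aqp7 (0.50), where the median gene was at 2.1. For Tspan8 they were Scube3 (0.31), Ccdc3 (0.34) and Emp1 (0.36). For Ly6d they were Akr1b7 (0.67), Gm13857 (0.86) and Fam83a (0.87), and Sprr1a came next at 0.89. For Sprr1a they were Ly6d (0.89), Sult2a1 (1.25) and Cyp2c72-ps (1.31), where the median gene was at 3.96.

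For Spp1 the most alike were Gm42793 (0.09), Scara3 (0.26) and 4930533K18Rik (0.27). Gm42793 lies inside the Spp1 gene on the same strand, so its reads cannot be told apart from those of Spp1 there. Tspan8 lies in the span of the antisense gene 4930422I22Rik, which rose by 3.62 on the log2 scale (SE 0.47, edgeR adjusted p = 0.000511). Whether the counting used strand is not given in the sources used here, so both pairs are uncertain. Sparcl1, 321 kb from Spp1, rose by 3.17 on the log2 scale, and Cc2d2a, 253 kb from Prom1, by 1.60. Tmem19, 454 kb from Tspan8, fell by 1.39 on the log2 scale.

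The chromatin lists differed between the 5 genes. Each list holds the peaks of 1 condition with no counts per sample, so a peak in 1 list only is called gained or lost without a test. In the gene body extended by 10 kb, a gained H3K27ac peak, the mark of active promoters and enhancers, was found at Prom1 and Ly6d and not at the other 3. Of all 21938 protein-coding genes 22.1% had one, and of the 1560 protein-coding genes called higher 36.2%.

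Prom1 lies at chr5:43993620-44102032 on the minus strand. The WT list held no H3K27ac peak within 50 kb of it, and the Setd8-LKO list held 4 in its body, all in introns. A pair of them lies next to the gene start, at chr5:44101078-44101644 with a fold enrichment over background of 7 and at chr5:44100531-44100782 with 9.61. The other pair lies near the 3' end of the gene, with 6.96 and 7.48. At the start, the Setd8-LKO list also had CTCF peaks of 16.3 and 11.7 fold and a Smc3 peak of 62.7 fold, at chr5:44100430-44101767, which covers intron and 171 bp of exon. Of all protein-coding genes 39.0% had a gained CTCF peak and 46.2% a gained Smc3 peak within 1 kb of a start, against 8.5% with a gained H3K27ac peak. Of the protein-coding genes called higher these shares were 48.6%, 61.8% and 16.7%.

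Prom1 had 4 intronic ATAC-seq peaks in WT, all kept in Setd8-LKO, with fold enrichments of 5.67 to 13.5 in WT and 5.75 to 11.5 in Setd8-LKO. Another was gained 1.25 kb upstream of the start, measured to the peak's centre, with 5.99 fold. The Smc3 peak of WT 2.88 kb beyond the 3' end, with 31.0 fold, was lost: it is the one whose window is printed above with a CTCF core. Of Smc3 peaks of WT that were lost 52.2% hold the core within 100 bases of the summit, and of gained CTCF peaks 19.1%. The lost Smc3 peaks at Spp1 and Ly6d held no core. Within 50 kb, a gained CTCF peak at Spp1 and another at Ly6d held the core. The other gained CTCF peaks at Ly6d and those at Prom1 did not, so the printed pair does not stand for the 5 genes.

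Ly6d lies at chr15:74762056-74763620 on the minus strand. The gained H3K27ac peaks over its body, of 9.34 fold at chr15:74762972-74763549 and 5.56 fold at chr15:74762511-74762749, cover parts of exons and introns. An ATAC-seq peak over the body was already there in WT, with 6.49 fold over 605 bp, and was kept with 7.19 fold over 206 bp. By a reciprocal overlap of 50% it was not kept. A CTCF peak about 1 kb beyond the 3' end was kept, with 12.0 fold in WT and 16.8 in Setd8-LKO. The Smc3 peak of WT at the same place, with 19.6 fold, was lost, and a Smc3 peak of 18.6 fold was gained 8.89 kb beyond the 3' end, where H3K27ac and ATAC-seq peaks were kept. That ATAC-seq peak, of 434 bp in WT and 203 bp in Setd8-LKO, was not kept by a reciprocal overlap of 50% either. Further upstream, inside Gm17189, H3K27ac, CTCF and Smc3 peaks of 14.5, 14.3 and 28.6 fold were gained next to a kept ATAC-seq peak.

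Spp1, at chr5:104435118-104441050 on the plus strand, had no H3K27ac, ATAC-seq or CTCF peak within 10 kb in either list. Its Smc3 peaks of WT, 1.89 kb upstream with 12.2 fold and 5.27 kb beyond the end with 8.60 fold, were lost. Tspan8, at chr10:115816832-115849893 on the plus strand, had no H3K27ac peak within 50 kb in either list. It gained an ATAC-seq peak 7.38 kb upstream with 8.30 fold and, beside it, a Smc3 peak with 12.4 fold. Spp1 and Sprr1a thus had neither an H3K27ac nor an ATAC-seq peak within 10 kb in Setd8-LKO, as 10.8% of the protein-coding genes called higher and 28.6% of all did.

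Sprr1a, at chr3:92483952-92485895 on the minus strand, had no H3K27ac, ATAC-seq, CTCF or Smc3 peak within 50 kb in either list. Within 10 kb this held for 6.35% of the protein-coding genes called higher and for 21.8% of all. It lies in a Lamin A/C island of 760000 bp, chr3:92300001-93060000, with the same borders in WT and Setd8-LKO and scores of 983 and 743. Such an island overlapped 13.0% of protein-coding genes in WT and 10.7% in Setd8-LKO, and 8.59% and 6.86% of those called higher. No other of the 5 genes lay in a Lamin A/C island, and none lay in an H4K20me3 island, which overlapped 11.1% of protein-coding genes in WT and 11.4% in Setd8-LKO, and 4.36% and 5.13% of those called higher.

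The number of the 5 genes with a peak within 10 kb can be read against these shares, given for all protein-coding genes and then for those called higher. An H3K27ac peak was found at 1 gene in WT (62.6% and 75.0%) and at 2 in Setd8-LKO (67.0% and 81.9%). An ATAC-seq peak was found at 2 in WT (62.4% and 71.7%) and at 3 in Setd8-LKO (58.0% and 69.9%), gained at 2 (10.6% and 19.4%) and lost at none (26.0% and 28.8%). With so few genes these counts carry no test. A CTCF peak was found at 1 gene in WT (24.2% and 33.6%) and at 2 in Setd8-LKO (59.4% and 71.2%), gained at 1 (55.0% and 64.9%). A Smc3 peak was found at 3 in WT (41.2% and 53.9%), all lost (25.2% and 35.4%), and at 3 in Setd8-LKO (67.8% and 83.3%), all gained (59.3% and 74.2%). Within 10 kb, gained CTCF and Smc3 peaks were thus of a kind found at most genes. Within 1 kb of a start, as at Prom1, the shares were 39.0% and 48.6% for CTCF and 46.2% and 61.8% for Smc3.

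**Figure D4:**
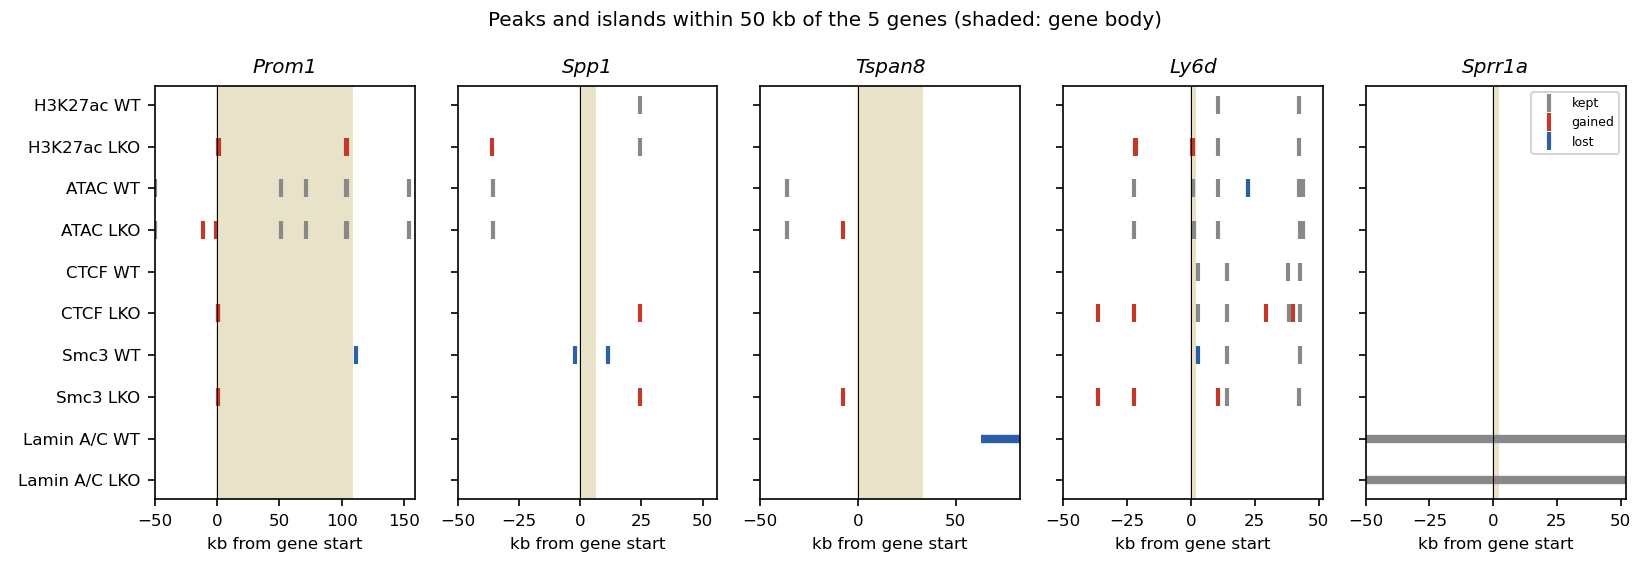
Peaks and Lamin A/C islands within 50 kb of each gene, by distance in kb from the gene start in the direction of transcription, for the WT and Setd8-LKO + TCPOBOP lists. Gained marks cluster at the starts of Prom1 and Ly6d, Spp1 and Tspan8 have few marks, and Sprr1a has only the Lamin A/C island of both lists.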

How the data were processed

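Values of RNA-seq and of the chromatin assays were used as deposited. The authors' RNA-seq steps were PRINSEQ for read quality, HISAT2 alignment to mm10, and metaseqR for counting and normalization. The deposited tables hold raw counts and normalized counts, which are scores equal to the raw count times 1 factor per library, of the genes the authors selected, so tests describe selected genes only. For the chromatin assays the authors called peaks with MACS2 2.2.7.1, whose deposited fold enrichment (a ratio) and -log10 p are given as they stand, and islands with SICER2, whose deposited score is used. How replicates were pooled for calling is not given in the sources used here. Columns of the authors' own fold changes and p-values, and another 114 columns of transformed counts, were not used.

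Tests on raw counts used edgeR 4.0.16 under R 4.3.3 (quasi-likelihood, the authors' factors as scaling, at least 10 counts in as many libraries as the smaller group), with Benjamini-Hochberg adjustment over the 55450 genes of GENCODE M21. Replicates are separate samples per the labels, and p-values measure the spread between them. The test was checked on simulated data, where 200 of 200 genes changed 4-fold were found among 3807 genes (Setd8-LKO) and 199 of 200 among 679 (WT + TCPOBOP). The simulated spread was a fixed value for all genes, not taken from these data, and low-count genes were left unchanged. This check therefore does not give the power of the test in these livers. DESeq2 1.42.0 served as an alternative. TMM factors and DESeq2 size factors were estimated over the listed genes alone. Positions and peaks were handled with Python 3.11.15, pandas 2.3.3 and pysam 0.24.0. A gene's peaks are those overlapping its body extended by 10 kb, and a kept peak overlaps the other list by at least 1 bp. The 5 genes and all lists were chosen with earlier results of these data known. Of each list the text names called genes only, at most the 4 with the highest and the 2 with the lowest log2 fold change, besides genes named as not called or not listed. Neighbours are listed genes within 500 kb.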

Additional observations from a re-analysis of the deposited data

Results flagged for a closer look

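Of the 11 groups of 4 or 5 libraries examined for the 5 genes, 1 held a sample far from the others. Ly6d had 30 normalized counts in WT replicate 3, where the other WT livers had 8 to 13, and the gap to the next liver was 0.773 of the range of the group. Chance alone marks about 1 in 20 groups. Without this liver the fitted log2 fold change of Ly6d was 8.64, against 8.19 with all livers.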

How the results depend on the processing

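TMM and DESeq2 size factors came from the listed genes alone, which the authors selected, so these runs cannot tell which scaling holds. With DESeq2 size factors the median log2 fold change of all genes moved by -0.824 in Setd8-LKO + TCPOBOP against WT, and the share of calls that were higher went from 60% to 35.9%, while TMM moved the median by -0.007. In WT + TCPOBOP against WT, TMM moved the median by -0.991 and that share from 76% to 27.7%, and DESeq2 size factors by -1.173 and to 25.8%. Genes called higher in Setd8-LKO, 1932, were 816 with DESeq2 size factors, 280 within run A and 1045 within run B (both chosen after seeing the data), and 1622 to 1964 with 1 library left out. Genes called lower, 1289, were 83 within run A and 1114 to 1242 with 1 library left out. In WT + TCPOBOP the 348 called higher were 72 with TMM, 67 with DESeq2 size factors, 145 with the replicate block, 88 within run A, 168 within run B and 277 to 331 with 1 library left out. The 110 called lower were 188 with TMM, 193 with DESeq2 size factors, 173 with the DESeq2 Wald test, 14 with the replicate block, 210 with adjustment over the listed genes alone, 7 within run A, 68 within run B and 55 to 102 with 1 library left out. The cause was not tested. Of the Setd8-LKO livers only replicate 4 is in run A, and replicates 1, 2 and 3 are in run B. The Setd8-LKO calls within run A therefore set replicate 4 alone against WT replicates 3, 4 and 5. With no spread between treated livers, these calls cannot show whether the main calls are stable.

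Each of the 5 genes kept its direction in every alternative run, with log2 fold changes of 4.16 to 5.67 for Prom1, 2.41 to 3.66 for Spp1, 2.51 to 3.76 for Tspan8, 7.35 to 8.82 for Ly6d, lowest with DESeq2 size factors, and 8.24 to 10.58 for Sprr1a. Prom1 in WT + TCPOBOP passed with the DESeq2 Wald test (2.28, adjusted p = 0.000703), with the replicate block (2.29, edgeR adjusted p = 0.0264) and with adjustment over the listed genes alone (2.28, edgeR adjusted p = 0.00112). It did not with TMM (1.29), DESeq2 size factors (1.1) or a run term (edgeR adjusted p = 0.134), and it was 2.04 to 2.58 with 1 library left out. Of the runs with 1 library left out, only that without the second WT + TCPOBOP liver passed. The replicate numbers share only a number across groups, since same-numbered libraries deviated together by correlations of -0.43 to 0.10.

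With DESeq2 size factors the genes called higher were 8 of the biliary list, 2 of the squamous, 3 of the Ly6, 2 of the tetraspanin, 1 of the apical and 3 of the YAP/TEAD list. With the replicate block they were 3 of the squamous, 1 of the apical and 4 of the YAP/TEAD list. With 1 library left out they were 3 to 5 of the squamous, 1 to 2 of the apical and 0 to 1 of the osteopontin list, and 1 of the osteopontin list with the Wald test and with adjustment over the listed genes alone.

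Over the gene body alone, 0 of the 5 genes had an H3K27ac or CTCF peak in WT, a gained ATAC-seq peak, or a Smc3 peak in WT or lost, and 1 had a CTCF peak, a Smc3 peak or a gained Smc3 peak in Setd8-LKO. Within 50 kb, 2 had an H3K27ac peak in WT, 4 an ATAC-seq peak in WT, 1 a lost ATAC-seq peak, 3 a gained CTCF peak, 2 a Lamin A/C island in WT and 1 a lost one. With the stricter peak threshold 1 had a gained ATAC-seq peak, and with a reciprocal overlap of 50% 1 had a lost one. Peak lists hold no counts per sample, and the selected tables do not give the depth of the libraries.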
